A study of Homo sapiens with 4 samples.

Results

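Stop-codon-side m6A peaks are enriched stretches of messenger RNA that touch both the coding sequence and the 3′ UTR, and so run across the end of the reading frame. They were chosen by the region labels of the deposited peak lists alone: a distinct peak (1 position, strand and set of exon blocks) was taken if its labels, united over all transcripts it was listed on, were exactly coding sequence and 3′ UTR. There were 6215 among 32069 peaks of the cisplatin-resistant lung adenocarcinoma line A549/DDP and 6118 among 27319 peaks of the cisplatin-sensitive line A549, or 12333 of 59388 in all. A549 is an established human cell line, A549/DDP is the resistant line according to the labels, and both were grown in the same medium with serum and antibiotics; no drug during culture is given in the labels, and neither is the origin of A549/DDP. The lines were profiled by MeRIP-seq, which sequences RNA fragments captured by an anti-m6A antibody together with a share of the RNA before capture. There was 1 pull-down and 1 input library per line, analysed as 1 peak list per line, so nothing below has a replicate check and no test between the lines was made. The lists hold no read counts, so sequencing depth is unknown, and the fold enrichment and the p given for each peak come from the authors. A missing peak can mean scarce RNA as well as missing m6A, and these cannot be told apart in the lists. Positions are on hg19 and count from 1, and 95% intervals are exact binomial (Clopper-Pearson); they hold counting error alone and are narrower than they should be, since peaks on overlapping isoforms are not independent.

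N6-methyladenosine is placed on nascent RNA by a methyltransferase complex with METTL3 as its catalytic subunit and METTL14 as its partner. It is known to gather around stop codons and in the start of 3′ UTRs, where last exons are long, while exon junction complexes keep it away from splice junctions. Reader proteins of the YTHDF family bind the mark there and are best known for promoting decay of the transcript.

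The order of peaks along transcripts matched their labels. Where a transcript carried a stop-codon-side peak and a coding-only peak, the coding-only peak lay upstream in 2475 of 2475 pairs in A549/DDP and 2197 of 2197 in A549. A 3′ UTR-only peak on the same transcript lay downstream in 1455 of 1455 and 1293 of 1293 pairs. Correct labels force this order, so it checks the labelling alone and says nothing about where m6A lies. All rows of a peak carried both labels themselves for 6183 of the A549/DDP members and 6098 of the A549 members, and the other 32 and 20 had both labels only after rows of different transcripts were united. The mitochondrial genome stood apart, where 4 members in A549/DDP and 5 in A549 covered 100% of their listed transcript. Mature mitochondrial messages have little or no untranslated sequence, so these peaks are whole-transcript enrichments and not stop-codon sites.

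Stop-codon-side peaks made up 19.4% of the A549/DDP list (18.9 to 19.8) and 22.4% of the A549 list (21.9 to 22.9). The absolute numbers of stop-codon-side peaks were close in the lists. With the overlapping peaks within each list joined into regions, 2615 of 12441 regions (21.0%) in A549/DDP and 2495 of 10733 (23.2%) in A549 held at least 1 stop-codon-side peak. Of these merged regions 67.6% and 68.3% held stop-codon-side peaks and no other class, while 19.2% and 18.4% also held a 3′ UTR-only peak and 14.5% in both lists a coding-only peak. Isoforms multiplied the members: 1 gene had 2 members at the median, and the gene with most had 18 in A549/DDP and 17 in A549. That gene in A549/DDP was IL32, a cytokine gene with many annotated isoforms (17 in A549), followed by HNRNPC, a nuclear RNA-binding protein gene, with 17 in each list. NFASC, the gene of the adhesion protein neurofascin, had 16 in A549/DDP and no peak of any region in A549. Its peak of highest fold had a p of 1.26e-06, weaker than the list's median of 5.13e-08. IRF3, an interferon regulatory transcription factor gene, followed in A549 with 13 stop-codon-side peaks among 14.

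**Figure D1:**
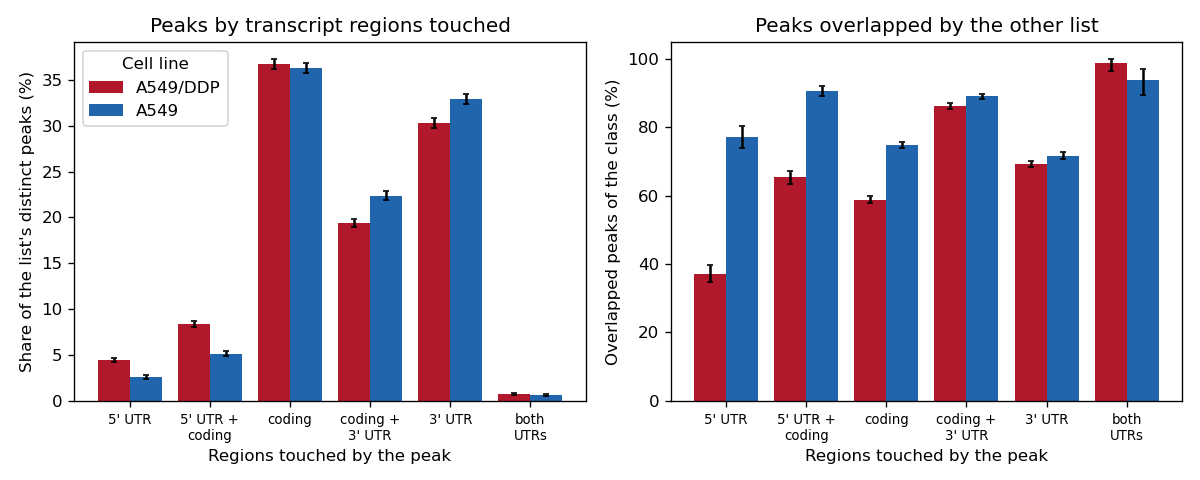
Left, share of each list's distinct peaks by the transcript regions they touch; right, share of the peaks of each class overlapped by a peak of the other list (at least 1 exonic base, same strand), with exact binomial 95% intervals as whiskers, A549/DDP in red and A549 in blue. Coding and 3′ UTR peaks make up 19.4% and 22.4% of the lists, and 86.2% and 89.0% of them are overlapped.

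By p and length, members stood above the median of their list. The fold enrichment had a median of 4.20 among A549/DDP members (quartiles 2.76 and 6.41) and of 3.96 among A549 members (2.67 and 6.28), against 3.81 and 3.72 over all peaks, 3.48 and 3.63 for 3′ UTR-only peaks and 3.56 and 3.49 for coding-only peaks. Classes that reach the 5′ UTR had higher median folds than the members: 5.57 and 5.51 for 5′ UTR-only peaks, 5.42 and 4.24 for those of 5′ UTR and coding sequence, and 5.89 and 4.32 for those of both UTRs. A p smaller than the median p of the list was listed for 74.9% of members in A549/DDP and 76.9% in A549, against 44.0% and 45.7% of 3′ UTR-only peaks. A fold of at least 5 was listed for 38.9% of members in A549/DDP and 36.4% in A549, against 34.9% and 33.9% of all peaks. Very high folds were not as frequent: a fold of at least 10 was listed for 9.73% of members in A549/DDP and 11.0% in A549, against 12.1% and 14.1% of all peaks. The median member covered 328 exonic bases in A549/DDP and 329 in A549, against 211 and 210 over all peaks and 180 in each list for 3′ UTR-only peaks. A long peak reaches 2 regions more easily than a short one, so length is in part set by how members were chosen. Within 1 range of length, 241 to 480 exonic bases, the median fold of members was 4.40 in A549/DDP and 3.87 in A549, that of coding-only peaks 4.0 and 3.75, and that of 3′ UTR-only peaks 4.43 and 4.68. At this length the members thus had the highest median fold in neither list.

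In A549/DDP 68.9% and in A549 66.1% of members had 1 exon block, close to the 67.0% and 68.7% of all peaks. The neighbouring classes differed from them, with 50.3% and 49.5% of coding-only peaks and 99.2% and 99.0% of 3′ UTR-only peaks in 1 block. A further 16.8% and 19.1% of members had 2 blocks, and 14.3% and 14.8% had 3 or more. The transcripts of members were shorter than those of coding-only peaks, with a median length of 2274 bases in A549/DDP and 2122.5 in A549 against 3347 and 3109. The median member covered 15.7% and 17.0% of its transcript, and 442 and 509 members covered at least 50%. The longest was on MYH9, which encodes a non-muscle myosin heavy chain: it joined 21 exon blocks and 3766 exonic bases in A549/DDP (chr22:36678223-36697602, minus strand, fold 4.27), and it had 3795 in A549 (chr22:36678194-36697602, fold 5.62). Such a peak holds the stop codon but is not confined to it.

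Short transcripts carried a stop-codon-side peak more often. Of all 7957 genes with a peak in either line, 3181 (40.0%) had a stop-codon-side peak in at least 1 line. The share was 54.6% (50.7 to 58.4) among genes with a median transcript length under 1000 bases, 48.3% (46.0 to 50.6) from 1000 to 2000, 38.0% (36.3 to 39.7) from 2000 to 4000 and 31.5% (29.5 to 33.4) above. The intervals of neighbouring length classes did not overlap. They hold counting error alone, and the classes were not matched for the length or number of peaks. A peak of a given length covers more of a short transcript, and the part of this in the shares was not tested.

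The genes of this paragraph were chosen after their values were seen, from those of highest fold in each list. Others of similar fold were left out here, and some of these are given below. The peak of highest fold in A549/DDP lay on HCN2, a gene of a hyperpolarization-activated cation channel, with a fold of 66.9 over 1346 bases (chr19:615814-617159, plus strand). The A549 peak had the same start and end and a fold of 25.2. LRRC26, which encodes an auxiliary subunit of a potassium channel, had 65.7 in A549/DDP (chr9:140063210-140063505) and 13.8 at the overlapping A549 peak. HES7, a transcriptional repressor gene of the segmentation clock, had 50.4 (chr17:8024889-8025124) and 17.3, and APOL1, an apolipoprotein gene, 46.9 (chr22:36661468-36662787) and 14.5. In A549 the highest fold lay on DNAJC22, which encodes a DnaJ-family co-chaperone, with 370 over 538 bases (chr12:49745160-49745697, plus strand). The overlapping A549/DDP peak began 30 bases further on and had a fold of 12.5. Both libraries thus listed a peak at these sites, with folds far apart. Sites named for an extreme fold do not show how far folds differ in general. Without read counts it is unknown how many input reads stood behind such folds.

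Genes with high rank in both lists at overlapping peaks were led by the mitochondrial MT-ATP8 (folds 46.1 in A549/DDP and 67.1 in A549), which overlaps MT-ATP6 (34.9 and 47.2), so that neither can be taken alone. Among nuclear genes, C12orf65 (now MTRFR), a mitochondrial translation release factor gene, had folds of 45.7 (chr12:123741382-123742118) and 309 (chr12:123741385-123742484). ZFPM1, a cofactor gene of GATA transcription factors, had 45.7 (chr16:88600197-88601691) and 63.6 (chr16:88600824-88601661). IER5L, an immediate-early response gene, had 46.3 (chr9:131938905-131940035, minus strand) and 48.0 (chr9:131938727-131940035), and its p was listed as 0 in both lists. It was the gene's 1 peak in each list and covered 41.8% and 48.4% of the transcript. SWAP70, which encodes an actin-binding signalling protein, joined 4 exons in both lists (chr11:9761844-9772053 with a fold of 58.6, and chr11:9761844-9771963 with 40.5). NUAK2, a gene of an AMPK-related kinase, had folds of 28.2 and 107 at peaks of 1882 and 2002 bases that ended at the same base on the 3′ UTR side (chr1:205271187-205273068 and chr1:205271187-205273188, minus strand). The others of these 12 genes were WDR92 (now DNAAF10), a dynein assembly factor gene (32.8 and 51.4), ZNF703 (44.0 and 30.7), PLEKHH3 (30.5 and 43.0), C9orf85 (30.5 and 54.5) and C9orf78 (28.4 and 56.2).

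The authors' p did not single out leading genes, since it was listed as 0 for 138 A549/DDP members and 114 A549 members. The genes named here are a few from this tie. In A549/DDP TGFB1, the gene of the growth factor TGF-beta 1 (fold 23.2, chr19:41836764-41838038), the prothymosin gene PTMA (23.1, chr2:232572511-232577818, 6 exon blocks) and the tropomyosin gene TPM4 (22.3, chr19:16186979-16212217, 8 blocks) had a p listed as 0. In A549 the nucleolar protein gene RSL1D1 (60.4, chr16:11931152-11933812) and TRIM16L (90.6, chr17:18638749-18639431) did. The overlapping A549/DDP peaks of these 2 had folds of 21.5 and 25.5. TRIM16L is a partial copy of TRIM16, so reads may have been shared between them.

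How far stop-codon-side peaks coincide between the sensitive line and its resistant counterpart was addressed by overlap with any peak of the other list, where sharing 1 exonic base or more on one strand counted. Of A549/DDP members 5359 (86.2%, 85.3 to 87.1) were overlapped, against 67.2% of all A549/DDP peaks, 69.3% of 3′ UTR-only and 58.8% of coding-only peaks. Of A549 members 5446 (89.0%, 88.2 to 89.8) were overlapped, against 78.0% of all A549 peaks, 71.7% of 3′ UTR-only and 74.8% of coding-only peaks. Peaks of 5′ UTR and coding sequence were overlapped at 65.3% in A549/DDP and 90.6% in A549, and those of both UTRs at 98.7% and 93.9%, so members did not have the highest share in either list. With equal numbers of the strongest peaks of each list the members' shares were 84.5% in A549/DDP and 79.7% in A549, and the order of the lists turned round. Strength moved with this share. Among members in the strongest decile of the list by p, 99.2% and 98.3% were overlapped, and in the weakest decile 46.1% and 57.1%. The strongest decile held 21.6% of the A549/DDP and 23.1% of the A549 members, and the weakest decile 2.45% and 1.95%. All other peaks, weighted to the same mix of deciles, would have been overlapped at 79.6% in A549/DDP and 87.7% in A549. Members exceeded the other peaks by 23.7 percentage points before and 6.62 after this weighting in A549/DDP, and by 14.2 before and 1.34 after it in A549.

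**Figure D2:**
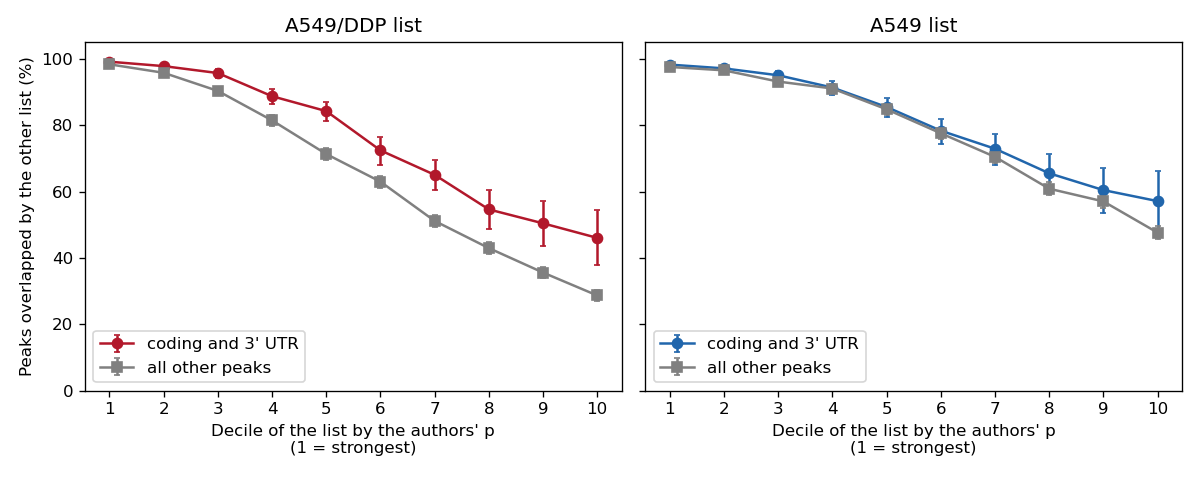
Share of peaks overlapped by the other list, by decile of the list in order of the authors' p (1 is the strongest), for coding and 3′ UTR peaks (circles, coloured) and all other peaks of the list (grey squares), with exact binomial 95% intervals. In the A549/DDP list the coloured points lie above the grey ones in 10 of 10 deciles; in the A549 list they do so too, but the intervals mostly include the grey points.

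Length also moved with overlap, and members stayed ahead within a length range in A549/DDP. Among peaks of 121 to 240 exonic bases, 77.7% of members (75.7 to 79.6) were overlapped there, against 69.0% of 3′ UTR-only peaks (67.6 to 70.4) and 48.6% of coding-only peaks (47.1 to 50.2). In A549 these shares were 82.4% (80.5 to 84.1), 72.0% (70.6 to 73.4) and 72.2% (70.7 to 73.7). Above 480 bases the classes lay close together, with 98.2%, 94.6% and 94.7% in A549/DDP and 97.2%, 94.7% and 97.5% in A549. From 121 to 240 bases the classes still differed in strength. In A549/DDP 52.0% of members, 37.3% of 3′ UTR-only and 20.7% of coding-only peaks had a p below the list's median. In A549 54.7%, 40.1% and 19.7% did, so the members' lead in this range was not matched for strength.

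Where a member was overlapped, the peak that shared most bases with it usually carried the same labels. That was so for 82.9% of overlapped A549/DDP members and 82.6% of overlapped A549 members, below the 84.8% and 85.2% of all overlapped peaks. In the remainder it was a 3′ UTR-only peak for 474 A549/DDP members (8.84%) and 664 A549 members (12.2%), and a coding-only peak for 394 (7.35%) and 200 (3.67%). A549/DDP members were thus matched to coding-only peaks more often than A549 members were, and A549 members to 3′ UTR-only peaks. Members overlapped by none numbered 856 in A549/DDP and 672 in A549. They were weak, with a median p of 4.47e-06 and 2.45e-06 against 5.01e-21 and 2.51e-18 for overlapped members, and short, with a median of 181 and 179 exonic bases against 358 and 357. Only 37.7% and 40.0% of them lay in a gene with another peak in the other list, against 56.1% and 59.0% of all peaks that were not overlapped.

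The ends of matched peaks were compared over 1848 genes, with 1 pair of overlapping stop-codon-side peaks per gene that were each other's best match. The pair was identical in position and blocks for 254 genes (13.7%). Among the 1175 pairs in a single exon in both lists, the end on the 3′ UTR side was the same base in 43.1% and the end on the coding side in 25.8%. The median difference was 0 bases at both ends. The quartiles, taken as A549/DDP minus A549 in transcript direction, were -29 and 30 bases on the coding side and 0 and 30 bases on the 3′ UTR side. In total 738 genes had the longer peak in A549/DDP, 824 in A549, and 286 had the same length. Many differences of ends lay near multiples of 30 bases, so ends at the same base do not show agreement to 1 base. Over all 2542 pairs that were each other's best match, with several per gene allowed, 22.2% were identical. Of the 1556 single-exon pairs among them, 52.6% had the same 3′ UTR-side end and 34.9% the same coding-side end.

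**Figure D3:**
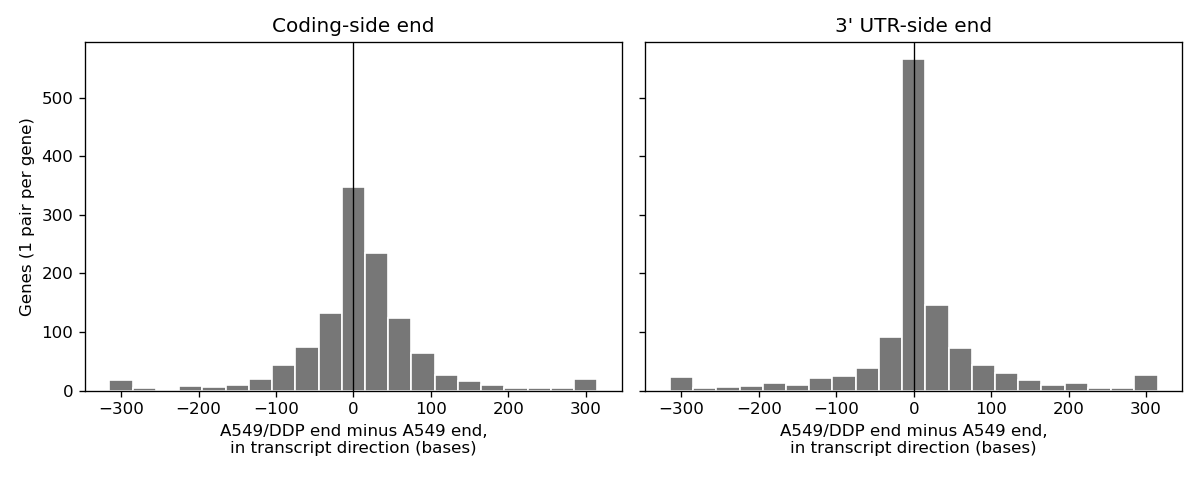
Difference of peak ends between the lists (A549/DDP minus A549, in transcript direction, in bases) for 1175 genes with a matched single-exon pair, at the coding-side end (left) and the 3′ UTR-side end (right); the outermost bars hold all larger differences. The central bar is higher at the 3′ UTR side, where 43.1% of the ends coincide exactly against 25.8% on the coding side.

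In a few genes overlapping peaks differed strongly in length. SART1, a splicing factor gene, had 420 exonic bases in 4 blocks in A549/DDP (chr11:65745322-65746641, plus strand, fold 6.45) and 2485 bases in 20 blocks in A549 (chr11:65729280-65746611, fold 7.26), where the peak took in most of the transcript (75.5%). A549/DDP had 3 peaks in SART1, and the A549/DDP peak that shared most bases with the A549 peak was coding-only. Enrichment in A549/DDP was thus not confined to the 420 bases. RBBP6, which encodes a ubiquitin ligase that binds RB1, had 2816 bases in A549/DDP (chr16:24580694-24583885) and 1319 in the A549 peak that shared most bases with it (chr16:24582537-24583855). A549/DDP also listed an RBBP6 peak of 1498 bases there (chr16:24582388-24583885), with the same fold of 8.58 and the same p. The RBBP6 difference thus depends on which of the overlapping peaks were paired.

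Across the same 1848 genes the folds of the 2 lists had a Spearman correlation of 0.74, and the p-values one of 0.75. This describes the pairs of sites: the points share the annotation, the transcript and its length, and peaks were paired because both lists held one. The median fold was 4.60 in A549/DDP and 4.52 in A549. Of these genes 230 had a fold of at least 10 in A549/DDP and 258 in A549, and 118 had it in both.

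**Figure D4:**
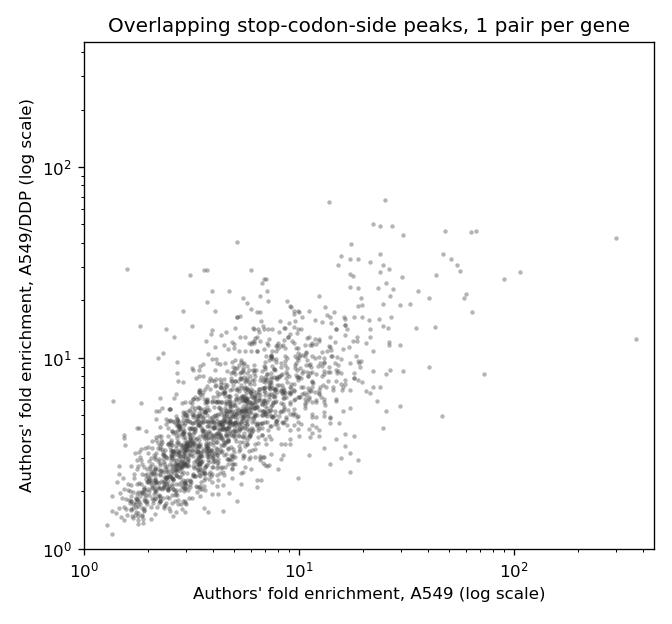
Authors' fold enrichment of matched stop-codon-side peaks in A549 (x axis) and A549/DDP (y axis), both on log scales, 1 point for each of 1848 genes. The points rise together (Spearman 0.74), and DNAJC22 at 370 and 12.5 and C12orf65 lie far to the right.

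By gene, 1861 of the 3181 genes with a stop-codon-side peak (58.5%) had one in both lines, 719 only in the A549/DDP list (22.6%, 21.2 to 24.1) and 601 only in the A549 list (18.9%, 17.5 to 20.3). For any peak the shares were 69.5%, 18.9% and 11.6% of 7957 genes. With equal numbers of the strongest peaks, 420 genes had one only in A549/DDP and 554 only in A549, which turned the order of the lines round. Most of the genes of one line alone had a peak of some region in the other list. Of the 719 A549/DDP genes, 334 (46.5%) had the stop-codon-side peak overlapped by an A549 peak with other labels, 3′ UTR-only in 174 and coding-only in 147 of them by the strongest such peak. Another 133 (18.5%) had an A549 peak elsewhere, and 252 (35.0%) had no A549 peak. Of the 601 A549 genes, 307 (51.1%) were overlapped by an A549/DDP peak with other labels, 3′ UTR-only in 211 and coding-only in 70, 102 (17.0%) had one elsewhere, and 193 (32.1%) had none, except that 1 of these had an overlapping peak listed under another symbol. Peaks of genes in one line alone were weaker: the smallest p per gene had medians of 1.02e-07 and 3.02e-09 in the A549/DDP and A549 lists, against 1e-23 and 6.31e-21 for genes of both lines. For 747 genes in A549/DDP (29.0%) and 839 in A549 (34.1%) the stop-codon-side class was the only class of peak listed.

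Among genes whose stop-codon-side peak in A549/DDP was overlapped by no A549 peak, JPH3, a junctophilin gene, led with a fold of 48.1 (chr16:87723343-87730444, 2 blocks), followed by KIAA1919 (now SLC60A2) with 32.8 (chr6:111588059-111588389) and OTUD1, a deubiquitinase gene, with 29.3 (chr10:23729633-23729873). N4BP3 had 17.6 over 810 bases (chr5:177548596-177549405). BAI1 (now ADGRB1), an adhesion receptor gene, had 11.7 over 1255 bases in 4 blocks (chr8:143623688-143626370). NHSL1 (23.5), RPRML (18.2) and ZNF384 (11.4) completed these 8. ZNF384, a zinc finger transcription factor gene, was the 1 of them with other A549 peaks, 5 in number, all away from this site. The fold and p of KIAA1919 were listed at 7 positions in all, those of OTUD1 at 5 and those of RPRML at 4. These genes rest on values that recur in the list.

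Among the A549 genes of the same kind, YIF1B had a fold of 28.9 (chr19:38797397-38797576), with the same fold and p listed at 17 positions in all, and MARS2, the mitochondrial methionyl-tRNA synthetase gene, 26.4 (chr2:198571585-198571975), listed at 11. VMO1 had 24.0, the adrenergic receptor gene ADRA1B 19.8 (chr5:159399341-159399551), the phosphodiesterase gene PDE4B 19.0 (chr1:66838211-66838421), the adhesion protein gene FLRT3 16.5 and the helicase gene IGHMBP2 14.5. The fold and p of VMO1 were listed at 3 positions in all, those of ADRA1B at 2 and those of FLRT3 at 5. YIF1B had 4 A549/DDP peaks, MARS2 1 and IGHMBP2 2, all away from these sites, and the others of these genes had none. NPIPB11 (19.8) belongs to a multigene family of near-identical copies, so its assignment is uncertain. These peaks covered 178 to 391 bases, and their p lay between 5.13e-10 and 6.92e-08, close to the list's median of 9.12e-08.

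The gene lists were set against the share of genes with a peak that had a stop-codon-side peak in at least 1 line, 40.0%. They were chosen with earlier results of these data known, and the counts describe these libraries. Cytosolic ribosomal protein genes stood at 50 of 59 (84.7%), with 41 in both lines, 3 in A549/DDP alone and 6 in A549 alone. Their transcripts are short, with a median of 785.5 bases. Among genes with transcripts under 1000 bases, 88.4% of the ribosomal ones (38 of 43) and 52.2% of the others had a stop-codon-side peak, and the part of length in the share was not tested. The folds were low: over the strongest stop-codon-side peak of each gene the medians were 2.62 and 2.17, against 4.56 and 4.34 over all genes with such a peak. RPS6, of the small subunit, had an identical peak of 385 bases in 3 blocks in both lists (folds 11.9 and 8.02). RPL28 (chr19:55899617-55899887, 9.71, and chr19:55899393-55899887, 5.54) and RPL37 (8.46 and 5.43), of the large subunit, followed. RPS12 (2.71) and RPL23A (1.54) were listed in A549/DDP alone, and RPS4X (2.10) had a stop-codon-side peak in A549 alone, over a 3′ UTR-only peak in A549/DDP. Many ribosomal protein genes have processed pseudogenes, with which reads may have been shared.

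Immediate-early and stress transcription factor genes stood at 21 of 30 (70.0%), 17 in both lines. Their strongest stop-codon-side peaks were long, with medians of 628.5 and 656 exonic bases in the A549/DDP and A549 lists, and their median folds were 7.11 and 8.93. MYC, the proto-oncogene, had overlapping peaks with folds of 9.74 (chr8:128752991-128753588) and 11.1 (chr8:128752962-128753585), and IER5 had 10.6 and 10.8. SOX4, a transcription factor gene with 1 exon, had such a peak in A549/DDP alone (5.51), over an A549 peak that reached from UTR to UTR. The reverse held for JUND, an AP-1 subunit gene (11.8 in A549, chr19:18390593-18392165). FOS, another AP-1 subunit gene, had 9 peaks in A549, 2 of them stop-codon-side (the higher fold 2.71), and none in A549/DDP. Feedback inhibitors of signalling stood at 12 of 24, with 6 in both lines, 1 in A549/DDP alone and 5 in A549 alone, where over all genes with such a peak the shares were 58.5%, 22.6% and 18.9%. NFKBIB, an inhibitor gene of NF-kappa-B, had the same 1191 bases in both lists (chr19:39398341-39399531, folds 27.0 and 43.8), and DUSP1, a MAP kinase phosphatase gene, had low folds in both (2.17 and 2.06). DUSP4, another such phosphatase gene, had its 2 peaks in A549 alone (3.68 over 1047 bases, chr8:29194056-29195972). ZNRF3, a ubiquitin ligase gene that restrains Wnt receptors, had 29.7 in A549, with values listed at 12 positions, over a coding-only peak in A549/DDP.

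Splicing and RNA-binding protein genes stood at 21 of 37 (56.8%), receptor kinase, RAS, PI3K and mTOR genes at 15 of 28 (53.6%), chromatin regulators at 24 of 46 (52.2%) and Hippo, Wnt and Notch genes at 20 of 39 (51.3%). The splicing factor gene SF1 had 4 joined exons in both lists (folds 8.24 and 7.24), and the splicing coactivator gene SRRM1 had 12.9 in A549/DDP alone, over a coding-only A549 peak. HNRNPR (4.64 and 4.34) and the splicing factor gene U2AF2 (4.60 and 3.92) had them in both, HNRNPD (3.49) in A549/DDP alone and SRSF4 (7.77, chr1:29475069-29475717) in A549 alone. Of the receptors, ERBB2 had 5.23 and 4.16 and EGFR 2.87 and 3.18. TSC2, a tumour suppressor gene of the mTOR pathway, had 7 peaks in each list, all stop-codon-side (2.60 and 2.59), and its partner TSC1 had them in A549/DDP alone (5.95), over a coding-only A549 peak. Of the 24 chromatin regulators with a stop-codon-side peak, 17 had it in both lines, 7 in A549/DDP alone and 0 in A549 alone, to be read against the same 58.5%, 22.6% and 18.9%. The 7 included the histone demethylase genes KDM5A (8.91, chr12:395329-404762) and KDM5B (3.43), both over coding-only A549 peaks. NCOR1, a corepressor gene (7.71 and 8.26), the remodeller gene CHD7 (7.33 and 12.6) and ARID1A, a SWI/SNF subunit gene (7.17 and 6.91), had them in both. JAG2, a Notch ligand gene (7.59 and 13.7), and TEAD4, a transcription factor gene of the Hippo pathway with identical peaks (chr12:3149570-3149837, 6.50 and 8.50), were listed in both lines. CTGF (now CCN2), a well-known target of that pathway, had 2 peaks in A549/DDP and none in A549 (4.19, chr6:132270095-132270485), and JAG1 (6.13, chr20:10620068-10620457) and FZD5 (6.61), a Wnt receptor gene, had peaks in A549 and none in A549/DDP.

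**Figure D5:**
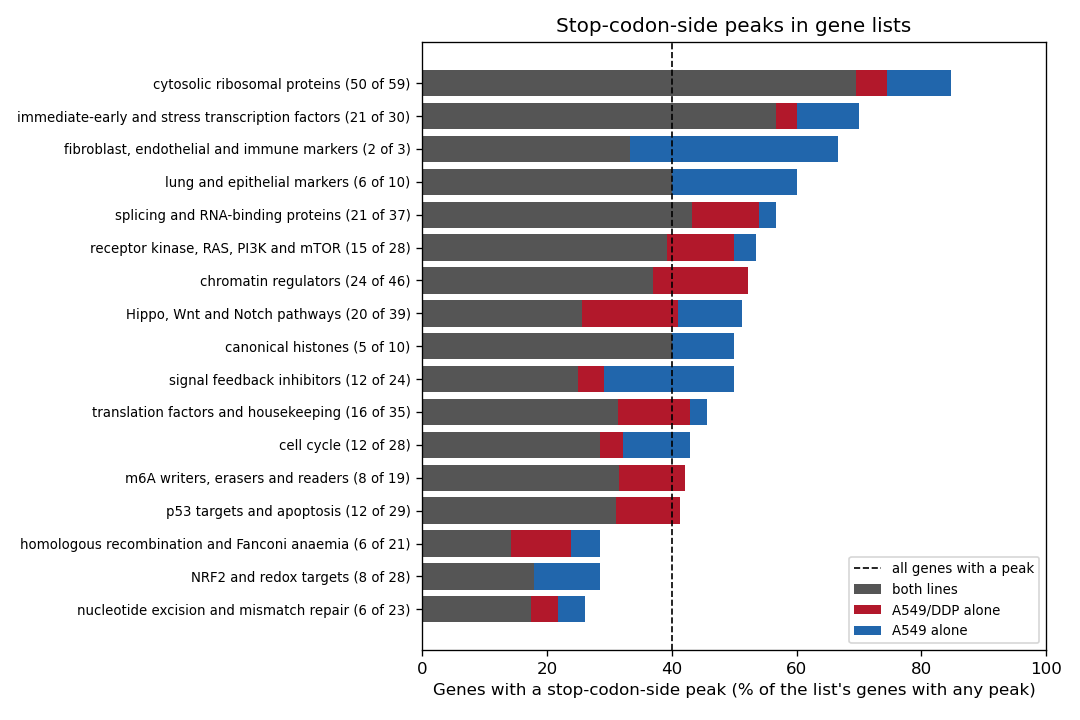
Genes with a stop-codon-side peak as a share of each list's genes with any peak (counts in brackets), split into both lines (grey), A549/DDP alone (red) and A549 alone (blue); the dashed line is the share over all genes with a peak, 40.0%. Ribosomal protein genes (84.7%) and immediate-early and stress factors (70.0%) lie highest, and the repair and NRF2 lists lie below the line.

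Translation factor and housekeeping genes stood at 16 of 35 (45.7%) and cell cycle genes at 12 of 28 (42.9%), near the share of all genes. EIF4G1, the scaffold of the cap-binding complex, had folds of 8.92 and 7.80 with p listed as 0 in both lists, while TUBA1A, an alpha-tubulin gene, had peaks in A549/DDP alone (3.40), with no A549 peak, though its near-identical copies may share its reads. EIF3A and HSPA8, a chaperone gene, had 8.51 and 5.45, and 5.74 and 4.82. MKI67, a proliferation marker gene, had peaks of 2008 and 2637 bases (3.83 and 2.97), the mitotic kinase gene AURKA had 3.13 and 2.94, the phosphatase gene CDC25A had 6.50 in A549/DDP alone over a 3′ UTR-only A549 peak, and CDKN1B, which encodes a cyclin-dependent kinase inhibitor, had one in A549 alone (4.96). Genes of p53 targets and apoptosis stood at 12 of 29 (41.4%), with 9 in both lines and 3 in A549/DDP alone. TNFRSF10A, a TRAIL receptor gene, had nearly the same peak in both (16.4 and 16.2). CASP8, the initiator caspase gene, had 4.05 in A549/DDP and 33.9 in A549, where the peak that overlapped it best was 3′ UTR-only. BBC3, which encodes the pro-apoptotic protein PUMA, had 24.6 over 4 blocks in A549/DDP and 7.60 in A549. GADD45B, a stress response gene, had 10.7 in A549/DDP (chr19:2477541-2478257), over a 3′ UTR-only A549 peak. Canonical histone genes stood at 5 of 10, among them H2AFX (now H2AX), the histone of DNA damage signalling, with peaks of 1256 and 1285 bases that covered 77.8% and 79.6% of its transcript. The linker histone gene HIST1H1E (now H1-4, 4.90 and 7.59) had matched peaks, and HIST1H1C (now H1-2, 3.60) had its 1 peak in A549 alone.

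Below the share of all genes stood 3 lists. Nucleotide excision and mismatch repair genes stood at 6 of 23 (26.1%), homologous recombination and Fanconi anaemia genes at 6 of 21 and NRF2 and redox targets at 8 of 28 (both 28.6%). These lists are short, so a few genes set each share. In A549/DDP 5 genes of each list had such a peak, with median transcript lengths of 2986, 5102 and 2955 bases in this order. The part of length in the shares was not tested. ERCC1, a subunit of the nuclease that cuts out platinum adducts, had joined 2 exons in both lists (chr19:45911731-45916971, 5.96, and chr19:45911701-45916971, 7.57). ERCC5, the other incision nuclease, had 568 bases in both (9.77 and 5.86), and SLX4, a nuclease scaffold gene, had 11.7 and 26.4, the latter a value listed at 11 positions. The Fanconi anaemia genes FANCA (4.69 and 5.68) and FANCI (2.25 and 2.37) had peaks in both lists. FANCD2, of the same pathway, had 4.85 in A549/DDP, over a 3′ UTR-only A549 peak. KEAP1, which encodes the repressor of NRF2, had 4.90 (chr19:10596796-10597482) and 6.46 (chr19:10596796-10599915), and OSGIN1 and the efflux pump gene ABCC1 had 5.70 and 6.76, and 5.24 and 7.11. The glutathione peroxidase gene GPX2 and ALDH3A1, an aldehyde dehydrogenase gene, had stop-codon-side peaks in A549 (2.49 over 630 bases, and 3.57) and no peak of any region in A549/DDP.

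The m6A machinery itself stood at 8 of 19 (42.1%). The writer subunit METTL14 had weak peaks at its stop codon in both lines (4.05 over 211 bases and 2.55 over 61 bases), and the subunit WTAP had its highest folds, 3.56 and 2.92, at sites apart from each other (chr6:160176272-160176692 and chr6:160169357-160169592). At the A549 site A549/DDP also had a stop-codon-side peak, with a fold of 3.38. The reader gene YTHDF2 had 6.76 and 5.63, and HNRNPC (7.62 and 2.48), HNRNPA2B1 (3.62 and 2.30) and RBMX (1.80 and 1.83), RNA-binding protein genes, had them in both. The methyltransferase gene METTL16 (7.52) and RBM15, an adaptor gene of the writer complex (7.62), had stop-codon-side peaks in A549/DDP alone, both over coding-only A549 peaks. Of 12 lung and epithelial marker genes, 5 had a peak in A549/DDP and 6 in A549, with stop-codon-side peaks on 3 and 5. The endodermal factor genes FOXA1 (30.5 and 15.3) and FOXA2 (12.3 and 7.08) and the keratin gene KRT18 (1.51 and 2.16) had them in both, and CDH1, the E-cadherin gene, had one in A549 (4.25, chr16:68867292-68867532) and no peak in A549/DDP. The FOXA1 fold and p in A549/DDP were listed at 17 positions, C9orf85 among them. KRT7, another keratin gene, had a stop-codon-side peak in A549 alone (1.99), over a 3′ UTR-only A549/DDP peak. Of the 12 markers NKX2-1, SFTPB, SFTPC, NAPSA, KRT19 and EPCAM had no peak in either list. Of 11 markers of fibroblasts, endothelium, immune and red cells, COL1A1 had a peak, at its stop codon in both lines (5.63 and 10.7). In a wider list of such markers CD14, a monocyte surface receptor gene, had 4 peaks in A549, 1 of them stop-codon-side (7.27, chr5:140011313-140011762), and none in A549/DDP. A peak list measures no expression, so a marker without a peak says nothing of its level, and the identity of the lines was not checked.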

How the data were processed

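One m6A pull-down and 1 input library each of A549 and A549/DDP stand behind 1 deposited peak list per line, so samples were not compared by a test. Per the submitters' processing notes, reads were aligned with HISAT2 to hg19; the sources used here name no peak caller, threshold, annotation release or comparison behind the fold. The fold enrichment (a ratio) and the p-value of each peak are the authors' deposited values, with p up to 0.00676 in A549/DDP and 0.00646 in A549, and whether p was adjusted is not given. Region labels, exon blocks and transcript lengths were also deposited by the authors. The number of reads behind a peak is unknown.

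Rows (33465 and 28601) were reduced to distinct peaks by position, strand and blocks, with labels united. Where a peak had several values (30 and 36 members), the smallest p and the highest fold were used. Peaks of the lists were overlapped by exonic bases on the same strand, at least 1 base, with code tested on simulated data (594 overlapping pairs, 0 wrong). No symbol was changed; 7829 of 7957 matched a RefSeq gene by current or older symbol. Named genes were chosen among stop-codon-side peaks with p below the list's median, each gene by its peak of highest fold: 12 in both lines at overlapping peaks by rank, 8 in each line alone, 6 per line by p, up to 3 in both and 2 in each alone per gene list, all m6A genes whatever their p, 3 per line by number of peaks whatever their p and 4 by length difference. A few genes that this rule names are not reported here. Members and gene lists were chosen with earlier results of these data known. Alternatives were a fold of at least 5, equal numbers of the strongest peaks, 50% overlap, stop-codon-side partners, merged regions, 1 peak per gene, peaks with p under the list median and, chosen after seeing the data, leaving out values found at 20 or more positions. Python 3.11.15, pandas 2.3.3, scipy 1.17.1 and matplotlib 3.10.9 were used.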

Additional observations from a re-analysis of the deposited data

How the results depend on the processing

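The alternatives changed the values in the text to differing degrees. With both lists limited to a fold of at least 5, stop-codon-side peaks were 21.6% and 24.0% of the A549/DDP and A549 lists. Of them 70.4% and 73.6% were overlapped by a peak that also had this fold, so these shares cannot be set directly against those in the text. Then 670 genes had one in both lines, 513 in A549/DDP alone and 409 in A549 alone. When both lists were limited to their 13659 strongest peaks, the shares were 30.7% and 34.4%, and 84.5% and 79.7% were overlapped; 420 genes then had a stop-codon-side peak in A549/DDP alone and 554 in A549 alone, so that the order of the lines turned round for both the overlapped share and the genes of one line alone. With at least 50% of the peak shared, 77.2% and 81.6% were overlapped, and with stop-codon-side partners alone 75.5% and 78.5%. As merged regions the shares were 21.0% and 23.2%, and 84.9% and 87.9% were overlapped. Genes with no peak of any region in the other list numbered 252 and 193. Without values found at 20 or more positions, an alternative chosen after seeing the data, the shares were 20.9% and 24.3%, and 85.3% of A549/DDP members were overlapped. One peak per gene gave median folds of 4.56 and 4.34 and median lengths of 336 and 357.5 bases, and peaks with p under the list median gave 4.59 and 4.22, and 390 and 389 bases. The causes were not tested. No paired analysis was possible because each line had 1 peak list. Depth is unknown, and with 1 list per line no difference between the lines has a replicate check.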
